A study of Saccharomyces cerevisiae with 6 samples.

Results

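The upper part of glycolysis was followed through 10 genes, chosen by gene name: the sugar kinases HXK1, HXK2, GLK1 and EMI2 (listed under its systematic name YDR516C), the isomerase PGI1, the phosphofructokinase subunits PFK1 and PFK2, and the enzymes that make and break fructose 2,6-bisphosphate, PFK26, PFK27 and FBP26. Each of the 10 genes had 1 gene model, and all 10 were among the 5463 models tested, out of 5479 in all. RNA came from 6 libraries of Saccharomyces cerevisiae, 3 of the reference strain CEN.PK113-7D (ACS1 ACS2) and 3 of IMY104, each from an independent chemostat culture per the labels. IMY104 is acs1Δ acs2Δ and so has neither enzyme of the yeast's own route from acetate to acetyl-CoA in the cytosol. It carries the centromeric plasmid pUDC140 with the Enterococcus faecalis genes pdhA, pdhB, aceF and lpd for a pyruvate dehydrogenase complex and lplA and lplA2 for its lipoylation. All cultures were aerobic and glucose-limited, with 7.5 g/L glucose in the feed and lipoic acid at 500 ng/mL for both strains, and ran at 30 °C and pH 5.0, diluted at 0.10 per h. In the header of the authors' table the IMY104 libraries carry a different CEN.PK strain name, and no source used here lists other alleles that separate the strains. The effects of the deletions, the plasmid and such alleles cannot be told apart.

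Glycolysis opens with the phosphorylation of the hexose that enters the cell, which traps it as a sugar phosphate. After isomerization, phosphofructokinase adds a further phosphate in the step that commits the sugar to glycolysis. Fructose 2,6-bisphosphate activates phosphofructokinase and inhibits fructose-1,6-bisphosphatase, which runs the reverse reaction in gluconeogenesis. In yeast, HXK2 is the main hexokinase of cells growing on plentiful glucose and also takes part in glucose repression, while HXK1 and GLK1 are repressed by glucose and are expressed when it is scarce.

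The deleted genes and the plasmid matched the labels. In the authors' deposited table, ACS1 fell from 1094 FPKM in CEN.PK113-7D to 0.882 in IMY104 and ACS2 from 494 to 0.179. FPKM relates the fragments of a gene to the length of its model and the size of the library, so levels can be compared between genes. The 7 plasmid genes had 344 to 10685 FPKM in IMY104 and 0.218 to 2.74 in CEN.PK113-7D per the authors' deposited table. The low end in both strains was ampR, which is not among the plasmid genes named above. The next lowest, the model named LipA1, had 1226 FPKM in IMY104 and 0.265 in CEN.PK113-7D. That table combines the 3 libraries of a strain into 1 value, so no value per library, no SD and no depth can be given, and the authors' test is the only place where the spread between cultures appears. In RNA of whole cultures, a change in every cell and a change in part of the cells cannot be told apart.

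Because several of these genes are paralogs, the coding sequences were first compared in the S288C reference (assembly R64). The longest identical stretches within 3 of the pairs are shown here, as a description of the exact sequence the copies share. How often a read was placed on the wrong copy was not tested.
HXK1 (bases 247 to 269 of the coding sequence) and HXK2 (bases 247 to 269): ttggccattgatttgggtggtac
GLK1 (bases 592 to 606) and EMI2 (bases 595 to 609): taccaggagcaatta
PFK26 (bases 1173 to 1183) and PFK27 (bases 669 to 679): tttcaatttgg
HXK1 and HXK2 had 77.8% identical bases over the aligned coding sequence, PFK26 and PFK27 72.7%, GLK1 and EMI2 69.0%, and PFK1 and PFK2 64.8%. Gaps were left out of these shares. PFK26 and PFK27 aligned over 1191 bases, while PFK26 has 2484. The 72.7% can therefore overstate their likeness, and the shares do not rank the pairs by likeness. The longest identical run was 23 bases for the hexokinases, 15 for the glucokinase pair and 11 for PFK26 and PFK27. Not one stretch of 50 bases in any of the 10 genes occurred anywhere else in the R64 genome, on either strand. Each deposited model was as long as the R64 coding sequence of its gene. These sequences are those of S288C, not of the CEN.PK strains.

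The comparison asks how these genes differ between a strain with a bacterial pyruvate dehydrogenase in place of its acetyl-CoA synthetases and the reference. Of the 10 genes, 3 were higher in IMY104 by the authors' test at a q-value under 0.05, none was lower, and 7 were not called. Over all models tested the authors' deposited table called 11.6% higher and 11.0% lower (22.6% in all), beside 3 of 10 (30.0%) here, and nothing particular to these 10 genes is read from that count. The called genes were HXK1, EMI2 and PFK27, which are a hexokinase, a glucokinase paralog and an isoform of the kinase that makes fructose 2,6-bisphosphate. The median log2 fold change (IMY104 over CEN.PK113-7D) was 0.01 for the 10 genes and 0.01 for all models tested, with quartiles of -0.11 and 0.14 over all models. The isomerase PGI1 and the phosphofructokinase subunits PFK1 and PFK2 had log2 fold changes of -0.01, -0.08 and -0.05 and were not called, per the authors' deposited table.

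**Figure D1:**
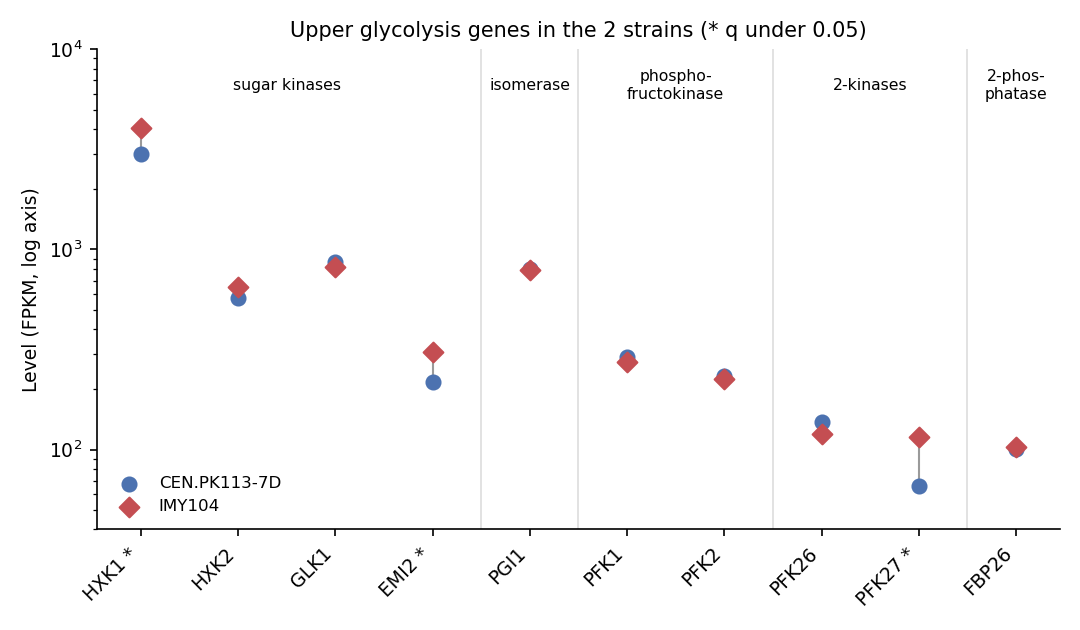
Level of each gene in FPKM (log axis) in CEN.PK113-7D (circles) and IMY104 (diamonds), 1 value per strain combined by the authors from 3 libraries; asterisks mark a q-value under 0.05. HXK1 stands above every other gene in both strains, and PFK27 shows the widest gap between strains on this log axis, from 66.1 to 115 FPKM.

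**Figure D2:**
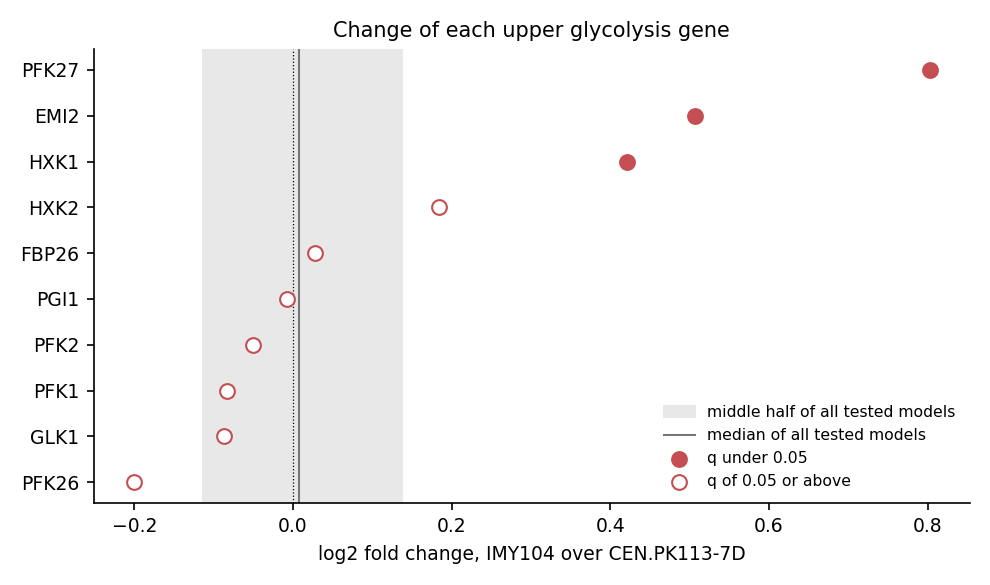
Log2 fold change by the authors (IMY104 over CEN.PK113-7D) for each gene (filled where the q-value is under 0.05), with the median and the middle part between the quartiles of all tested models in grey. PFK27, EMI2 and HXK1 lie between 0.42 and 0.80, and the 7 genes that were not called lie between -0.20 and 0.18.

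Among the sugar kinases, HXK1 (YFR053C, chromosome 6, 252555 to 254012 on the authors' assembly, minus strand) was the most abundant in both strains. Its level was 3003 FPKM in CEN.PK113-7D against 4020 in IMY104 per the authors' deposited table, a 1.34-fold rise (log2 fold change 0.42, q = 0.000874). HXK1 was above 97.7% of tested models in CEN.PK113-7D and above 98.4% in IMY104. HXK2 (YGL253W, chromosome 7, 23590 to 25050, plus strand), the isoform of glucose-rich growth, had 571 FPKM in CEN.PK113-7D against 649 in IMY104 per the authors' deposited table, and the difference was not called (log2 fold change 0.18, q = 0.182). The ratio of HXK1 to HXK2 was 5.26 in CEN.PK113-7D against 6.19 in IMY104, and whether the changes of the hexokinases differ was not tested.

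GLK1 (YCL040W, chromosome 3, 50497 to 51999, plus strand), the glucokinase, which phosphorylates glucose but not fructose, had 868 FPKM in CEN.PK113-7D against 818 in IMY104 per the authors' deposited table and was not called (log2 fold change -0.09, q = 0.615). Its sign turned under quantile normalization (0.01). EMI2 (YDR516C, chromosome 4, 1474017 to 1475519, minus strand), the paralog of GLK1, first known for a part in the early induction of meiosis, rose 1.42-fold, from 217 to 308 FPKM, per the authors' deposited table (log2 fold change 0.51, q = 0.00047). EMI2 was the rarest of the sugar kinases in both strains, and the ratio of GLK1 to EMI2 went from 4.01 in CEN.PK113-7D to 2.66 in IMY104. Whether the changes of this pair differ was not tested.

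Summed over the 4 sugar kinases, the level was 4659 FPKM in CEN.PK113-7D against 5795 in IMY104, 1.24-fold higher, and HXK1 alone made up 89.6% of the difference. The share of HXK1 in that sum was 64.5% in CEN.PK113-7D against 69.4% in IMY104. GLK1 had 18.6% and 14.1%, HXK2 12.3% and 11.2%, and EMI2 4.65% and 5.31% of the sum in the same order of strains. The makeup therefore differed most for HXK1, by 4.92 percentage points up, and for GLK1, which was not called, by -4.52 points. A higher level of HXK1 lowers the shares of the others, so the smaller GLK1 share is not a fall of GLK1 alone. The level of GLK1 itself differed by -50.4 FPKM. These shares are descriptions of combined values and carry no error or test.

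**Figure D3:**
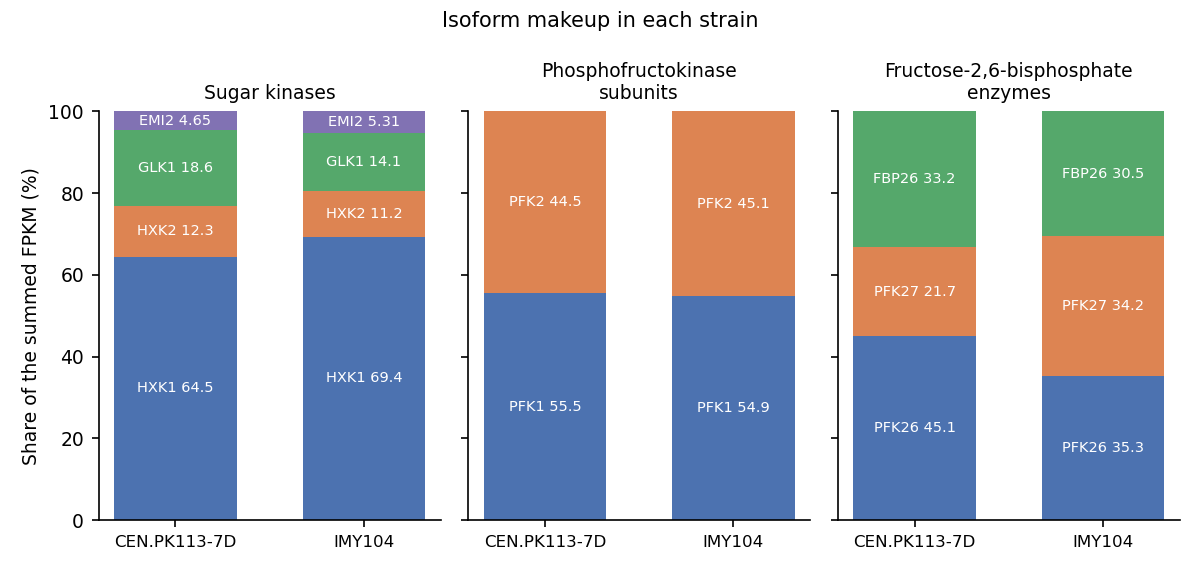
Share (%) of each isoform in the summed FPKM of its group, for the sugar kinases (left), the phosphofructokinase subunits (middle) and the fructose 2,6-bisphosphate enzymes (right), with 1 bar per strain and no error, as 1 combined value per strain was deposited. PFK1 takes 55.5% of the subunits in CEN.PK113-7D and 54.9% in IMY104, and PFK27 takes 21.7% of its group in CEN.PK113-7D and 34.2% in IMY104.

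PGI1 (YBR196C, chromosome 2, 606944 to 608608, minus strand), the phosphoglucose isomerase that turns glucose 6-phosphate into fructose 6-phosphate, had 796 FPKM in CEN.PK113-7D against 792 in IMY104 per the authors' deposited table. Its log2 fold change of -0.01 was the smallest in size of the 10 genes per the authors' deposited table (q = 0.977), and its sign turned under quantile normalization (0.09) and with equal sums of chromosomal models (0.07).

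PFK1 and PFK2 encode the alpha and beta subunits of phosphofructokinase. PFK1 (YGR240C, chromosome 7, 970537 to 973500, minus strand) had 291 FPKM in CEN.PK113-7D against 275 in IMY104 per the authors' deposited table (log2 fold change -0.08, q = 0.636). PFK2 (YMR205C, chromosome 13, 666544 to 669423, minus strand) had 234 FPKM in CEN.PK113-7D against 226 in IMY104 per the authors' deposited table (log2 fold change -0.05, q = 0.783, and 0.03 with equal sums of chromosomal models). Neither subunit was called, and the ratio of PFK1 to PFK2 was 1.25 in CEN.PK113-7D against 1.22 in IMY104.

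Of the enzymes that set fructose 2,6-bisphosphate, PFK27 was called and PFK26 and FBP26 were not. PFK27 (YOL136C, chromosome 15, 67439 to 68632, minus strand), the second isoform of the kinase that makes fructose 2,6-bisphosphate, rose 1.74-fold, from 66.1 to 115 FPKM, per the authors' deposited table (log2 fold change 0.80, q = 0.00047). Only 85 of the 5463 tested models had a larger rise, and PFK27 was the only one of the 10 genes to change at least 1.5-fold. Over all tested models, 5.33% were called and changed by that much, and 2.51% were called and higher by that much, per the authors' deposited table. PFK26 (YIL107C, chromosome 9, 163280 to 165763, minus strand), the first isoform, had 137 FPKM in CEN.PK113-7D against 119 in IMY104 per the authors' deposited table and was not called (log2 fold change -0.20, unadjusted p = 0.0395, q = 0.130). FBP26 (YJL155C, chromosome 10, 111782 to 113140, minus strand), the fructose-2,6-bisphosphatase, had 101 FPKM in CEN.PK113-7D against 103 in IMY104 per the authors' deposited table (log2 fold change 0.03, q = 0.880).

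PFK27 was therefore the rarer kinase in the reference, at 0.482 of the level of PFK26, and stood at 0.967 of it in IMY104. The log2 fold changes of PFK27 and PFK26 lay 1.00 apart, and that difference was not tested. Summed, the kinases had 203.2 FPKM in CEN.PK113-7D against 234.6 in IMY104, 1.15-fold higher, so the sum moved less than PFK27 alone. This sum was 2.01 times the level of FBP26 in CEN.PK113-7D, against 2.28 times in IMY104. YLR345W, which the authors' table describes as similar to these kinases and which was picked after its values were seen, had 254 and 219 FPKM per the authors' deposited table and was not called (log2 fold change -0.22, q = 0.0914).

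Ordered by level, HXK1 was followed in CEN.PK113-7D by GLK1, PGI1, HXK2, PFK1, PFK2, EMI2, PFK26, FBP26 and PFK27. In IMY104 the first 4 places were the same, EMI2 stood above PFK1 and PFK2, and PFK27 above FBP26. With no spread between libraries in the table, it cannot be said which neighbours in this order differ beyond their error.

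How small a change the authors' test could call was read from other chromosomal models whose level in CEN.PK113-7D and length lay within 1.5-fold of each gene. The smallest change called among them had a log2 size of 0.235 to 0.304, depending on the gene they were matched to, and the largest change not called, leaving out HXK1, 0.226 to 0.247. HXK1 had 7 such models, of which 5 were called, so its limits are less certain. The log2 fold changes of PFK26 (-0.20) and HXK2 (0.18), the largest among the genes not called, lie below these sizes per the authors' deposited table, so a change of that size would not be expected to pass and is not shown to be absent.

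None of the 20 nearest gene models, on either side of each of the 10 genes, overlapped the gene it was next to, and the gaps ran from 200 to 9153 bp. Of the 20, 5 were called, near the share of 22.6% over all models tested, so nothing is read from that count. EMI2 and the gene across its upstream region, GRH1, which encodes a Golgi-associated protein, were both higher, GRH1 with a log2 fold change of 0.40 (q = 0.00047) per the authors' deposited table. The models nearest to HXK1 on each side went opposite ways per the authors' deposited table. The proteasome subunit gene RPN12, 262 bp away, had -0.27 (q = 0.0187) per the authors' deposited table. IRC7, with the widest gap of 9153 bp, had 0.75 (q = 0.00047) per the authors' deposited table. GID7, next to GLK1, fell with -0.24 (q = 0.0443), and YMR206W, next to PFK2, fell with -0.33 (q = 0.00199) per the authors' deposited table. The neighbours of PFK27, BSC6 and MED7, had 0.18 (q = 0.161) and 0.26 (q = 0.0566) per the authors' deposited table and were not called, and both are named after their values were seen. Strand marking is not mentioned in the labels' protocols, so antisense reads could count to a gene. In R64 the reading frame YCL042W overlaps the start of GLK1 on the same strand, and it is not analysed here.

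Promoter windows from 350 to 51 bases before the start codon were read from R64 and searched on both strands for CCCCT, the stress response element bound by Msn2 and Msn4, CTTCC, the core bound by Gcr1, the activator of glycolytic genes, and CCCCAG and CCCCGG, forms of the core bound by the repressor Mig1. The part from 350 to 151 bases before the start codon is shown for HXK1 and EMI2, which rose and held CCCCT, and for GLK1, which held it more often and was not called. Capitals mark CCCCT, written AGGGG where it lies on the other strand.
HXK1 (R64 chrVI:255200-255399, minus strand): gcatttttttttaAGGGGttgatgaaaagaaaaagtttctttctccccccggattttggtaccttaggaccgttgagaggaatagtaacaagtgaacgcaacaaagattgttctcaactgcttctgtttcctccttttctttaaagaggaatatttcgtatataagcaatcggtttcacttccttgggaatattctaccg
EMI2 (R64 chrIV:1476627-1476826, minus strand): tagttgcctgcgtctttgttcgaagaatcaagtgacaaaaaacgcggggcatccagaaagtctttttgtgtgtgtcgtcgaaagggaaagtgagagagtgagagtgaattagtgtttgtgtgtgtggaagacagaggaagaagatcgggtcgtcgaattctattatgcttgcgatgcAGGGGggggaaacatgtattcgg
GLK1 (R64 chrIII:50488-50687, plus strand): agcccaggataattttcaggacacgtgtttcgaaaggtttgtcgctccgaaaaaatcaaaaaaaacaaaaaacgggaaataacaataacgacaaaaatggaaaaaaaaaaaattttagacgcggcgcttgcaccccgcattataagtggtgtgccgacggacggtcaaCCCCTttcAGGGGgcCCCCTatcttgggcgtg
CCCCT was found in the windows of 4 of the 10 genes (HXK1, GLK1, EMI2 and PFK26) and in 22.9% of the 6007 windows of the genome. GLK1 had 3 matches, starting 182, 174 and 167 bases before the start codon, and 0.666% of all windows had 3 or more. HXK1 had 1 at 337 and EMI2 1 at 173. PFK27, the gene with the largest rise, had no CCCCT in its window, and PFK26, which was not called, had 1. CTTCC stood in 6 of the 10 windows and 46.1% of all windows, CCCCGG in that of HXK1 alone, 304 bases before the start codon, against 2.50% of all windows, and CCCCAG in none, against 3.51%. Other forms of the Mig1 core were not searched, so CCCCGG and CCCCAG do not show which windows lack one. No match of one searched motif overlapped a match of another in these 10 windows. Of the genes whose windows held CCCCT, HXK1 and EMI2 rose and GLK1 and PFK26 were not called. A match is a description of letters in S288C, not a site.

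The genes around these steps were described by lists of the pathway's other parts. In lower glycolysis, from aldolase to pyruvate kinase, 6 of 12 tested genes fell and none rose, with a median log2 fold change of -0.28, beside 11.0% called lower and 11.6% called higher over all models tested. GPM1 (phosphoglycerate mutase) fell with -0.45, TDH3 (glyceraldehyde-3-phosphate dehydrogenase) with -0.45 and PGK1 (phosphoglycerate kinase) with -0.43 per the authors' deposited table. TDH3 has near-identical copies, so its value is less certain. Sequence shared with paralogs was examined for the 10 upper genes only, so other genes of this list may carry the same limit. ENO2, an enolase gene of this list, is not analysed here, having no model of that name. None of the 10 upper genes was called lower, and whether upper and lower glycolysis differ was not tested. Among the hexose transporters that feed the kinases, 5 of 9 tested genes rose and 1 fell, beside the same 11.6% and 11.0% of all models. HXT4 rose with 1.81, HXT10 with 0.61 and HXT2 with 0.37, while HXT5 fell with -0.93, per the authors' deposited table. HXT6 and HXT7 are not analysed here, having no model of that name, and reads of near-identical transporters can add to the others of the family.

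A further list held genes of the reverse direction. FBP1, the fructose-1,6-bisphosphatase that opposes phosphofructokinase, fell from 140 to 67.4 FPKM with a log2 fold change of -1.06 (q = 0.00047) per the authors' deposited table, while PFK1 and PFK2 were not called. PCK1, which makes phosphoenolpyruvate from oxaloacetate, rose with 0.54 per the authors' deposited table. Of the 8 genes for degrading fructose-1,6-bisphosphatase, a ubiquitin ligase complex and the ubiquitin-conjugating enzyme UBC8, 5 were not called. RMD5 fell with -0.55 (q = 0.00047), VID28 with -0.26 (q = 0.0274) and GID7 with -0.24 (q = 0.0443) per the authors' deposited table, and VID28 and GID7 did not pass a q-value under 0.01. In this list of 10 genes 1 rose and 4 fell, with a median of -0.16. Of 15 genes that lead hexose phosphates to other products, 1 rose and 4 fell, with a median of -0.03. Over all models tested, 11.6% were called higher and 11.0% lower (22.6% in all). Nothing particular to these lists, or to the 8 degradation genes, is read from their counts. SOL3, a 6-phosphogluconolactonase, fell with -0.68, the trehalose phosphatase TPS2 with -0.57 and the phosphoglucomutase PGM2 with -0.51, and GFA1, which draws fructose 6-phosphate into glucosamine, rose with 0.35, per the authors' deposited table.

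Of 25 transcription factors and glucose signalling genes 5 rose, 2 fell and 18 were not called, with a median log2 fold change of 0.06. The shares over all models tested were 11.6% called higher and 11.0% called lower. The activators of glycolytic genes GCR1, GCR2, RAP1 and TYE7 had changes of -0.04, 0.00, 0.00 and 0.06 and were not called per the authors' deposited table, and neither was MIG1 with -0.08. Those that rose most were STD1, a regulator of glucose sensing, with 0.93, MIG3 with 0.62 and MIG2 with 0.39, and ADR1 and HAP4, activators of genes used on non-fermentable carbon, fell with -0.29 each, per the authors' deposited table, with q-values of 0.0166 and 0.0192. MSN4 also rose, with 0.31 (q = 0.00721), and MSN2 was not called, with -0.22 (q = 0.0701), per the authors' deposited table. GCR1, GCR2, RAP1, TYE7 and MIG1 were named for their part in the control of these genes, after their values were seen. So were MSN2 and MSN4, for the motif CCCCT. By comparison, the 3 of 10 upper genes called (30.0%) lay within the range of the lists, from 28.0% of the transcription factors and signalling genes to 66.7% of the hexose transporters, and beside 22.6% of all models tested.

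**Figure D4:**
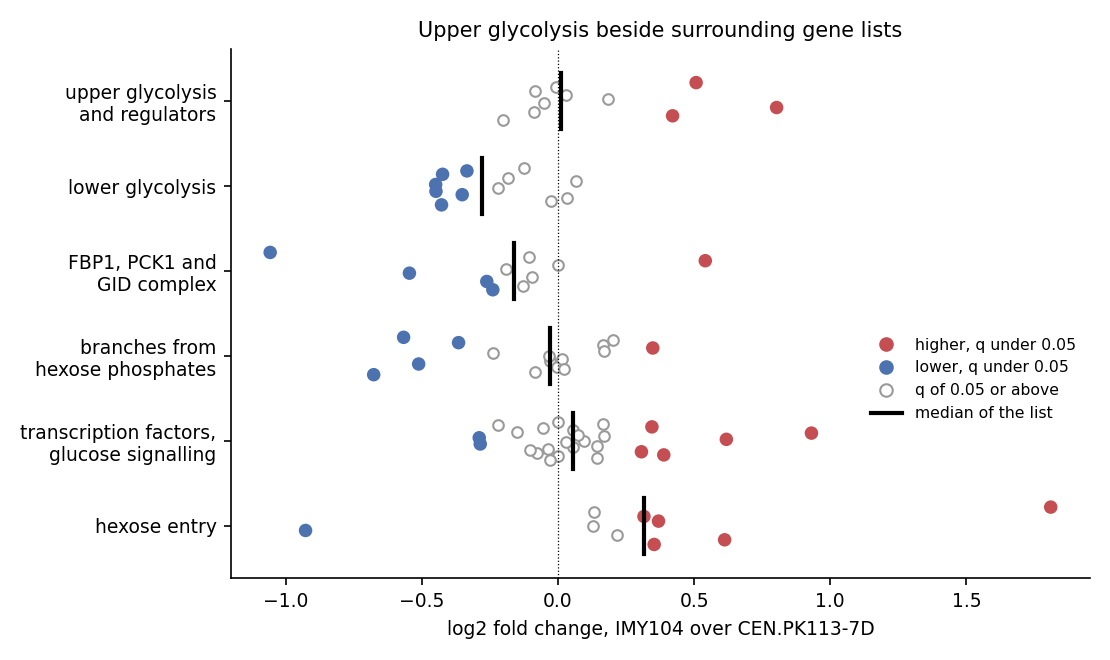
Log2 fold change by the authors (IMY104 over CEN.PK113-7D) for each tested gene of the upper glycolysis list and of 5 surrounding lists (red higher and blue lower at a q-value under 0.05, open otherwise), with black bars at the medians. Upper glycolysis has a median of 0.01 and 3 red points, lower glycolysis a median of -0.28 and no red point.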

How the data were processed

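RNA-seq was analysed for 6 libraries, 3 per strain, grouped by the strain in the labels. The submitters' processing notes name Cuffdiff and Cufflinks beside SAMtools 0.1.7-r510, CASAVA 1.8.2 and BWA 0.5.9-r16, with no order or role. How libraries were scaled to each other, and on which genome build, is not given in the sources used here. One FPKM value per gene model and strain was deposited, with the libraries of a strain combined, per the file headers. The deposited table adds for each model the log2 fold change, its signed linear fold form, a score used as the statistic of the authors' test, and a p-value and q-value. Models are predictions by JIGSAW, per the file's model names, and coordinates are as deposited. They differ from those of R64 and were not converted. Gene names came from R64.

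A test across libraries had been planned if values per library were given. As they were not, calls are the authors' own, at a q-value under 0.05 over the 5463 models tested, and neither an SD nor a depth can be had. The statistic was not turned into an error, because the deposited p-values were smaller than a normal reading of it gives for 90.2% of models (medians 0.268 and 0.422 over 4880 models above the smallest p). The smallest p, 5e-05, was shared by 581 models, EMI2 and PFK27 among them. Each deposited log2 fold change matched that computed from the FPKM columns within 0.0001.

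All 10 genes are named, with up to 3 called genes of each direction per surrounding list and neighbouring models that were called. No likeness of pattern was ranked, as 1 value per strain gives 1 ratio. The genes and lists were chosen with earlier results of these data known. Levels were summed per isoform group, coding sequences aligned and promoter windows searched with Biopython 1.88 in Python 3.11.15. The motif search, the search for shared runs and the Benjamini-Hochberg adjustment were tested on simulated data. No protein sequence was used here. The shared run of PFK1 and PFK2 is not reported here.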

Additional observations from a re-analysis of the deposited data

How the results depend on the processing

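The rises of HXK1, EMI2 and PFK27 kept their direction under all 5 other scalings and pseudocounts, with log2 fold changes of 0.41 to 0.54, 0.50 to 0.59 and 0.76 to 0.88, and they stayed called at a q-value under 0.01 and with adjustment over models of at least 1 FPKM or 300 bp. With a change of at least 1.5-fold required, 1 of the 3 was left, PFK27. Equal sums of chromosomal models shifted the median of all of them to 0.09 (log2). Signs turned in genes that were not called: GLK1 (0.0133) and PGI1 (0.0895) under quantile normalization, and PGI1 (0.0735) and PFK2 (0.0305) with equal sums. The share of HXK1 among the sugar kinases was 64.3% and 69.2% (CEN.PK113-7D and IMY104) with a pseudocount of 5 FPKM and 64.4% and 69.9% under quantile normalization. At a q-value under 0.01, the lower genes of the list with FBP1, PCK1 and the degradation complex were 2 and those of the transcription factor and signalling list 0. The lower genes of lower glycolysis were then 5, and the higher hexose transporters 4. At that threshold fewer models pass by construction. The share of all tested models that pass it is not given here, so nothing is read from these counts. Leaving out a library could not be run, since the table has 1 value per strain. No paired analysis was possible because the deposited columns carry no value per replicate. Precision is limited by the unknown depth and by 3 cultures per strain.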
